A study of Schizosaccharomyces pombe with 12 samples.

Results

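The comparison described here follows G1-arrested fission yeast (Schizosaccharomyces pombe) cells with the wild-type cohesin loader gene mis4+ through a move from 25 °C to 37 °C. It uses 6 of the 12 arrays of the series, 3 of cultures taken at 25 °C and 3 of cultures taken after 2 h at 37 °C, and was read across 2896 genes, each by the brightest of its probe sets. The other 6 arrays come from cells with the thermosensitive allele mis4-367, treated in the same way, and enter the fit for the estimate of spread and in 1 comparison of responses at the end. All cells of both temperatures were h- (the M mating type) with the genotype h- ura4+-pREP2-res1 mis4+. They carried a plasmid from which a C-terminal piece of Res1 was made once thiamine had been taken out of the minimal medium EMM2. Res1 is a binding partner of the transcription factor Cdc10, and its surplus piece titrates Cdc10 and stops cells before DNA replication. Controls and shifted cells therefore share the plasmid, the thiamine removal and the arrest, and what the shift did was not measured here in dividing cells. Replicates were 3 separate inoculates per strain, harvested before and after the shift, so that arrays of the same replicate number may come from the same culture. The fit takes them as separate samples, and a fit with the replicate number as a block was run as an alternative. Its values stand beside some of the calls and counts that it changed, and its totals stand at the end. No 25 °C culture held for 2 further hours was analysed here, so the higher temperature and the longer time in arrest cannot be told apart.

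In fission yeast a rise in temperature is known to act through separate routes. Heat shock factor Hsf1 drives genes of chaperones, which hold and refold damaged proteins. The stress MAP kinase Sty1 acts through the transcription factors Atf1 and Pcr1 on a common set of stress genes, and phosphatases of the Pyp family switch it off again. Glucose holds many genes down through cyclic AMP and protein kinase A, and a good nitrogen supply holds down permeases and the genes of mating and meiosis, which the starved cell turns on. Meiotic transcripts that appear in growing cells are normally destroyed by dedicated RNA elimination.

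The 6 arrays were alike in brightness, with median intensities over the genes of 403 to 433 (linear scale, arbitrary units of the scanner after normalization). Over the 12 arrays, principal component 1 held 80.5% of the variance and separated the temperatures. Replicate 3 at 37 °C stood apart on component 2, and it departed most from its own group, with an SD of 0.202 across the log2 values of the genes, where the other 5 mis4+ arrays had 0.078 to 0.134. On the array chip, 2601 probe sets of another yeast gave a measure of background. Their median change from 25 °C to 37 °C was -0.01 on the log2 scale, with the 5th and 95th percentiles at -0.16 and 0.12, and 0 of them differed 2-fold or more. Of the 2896 genes, 2878 lay above the background level, an intensity of 10.7, in at least 1 of the temperature groups. The labelled mating type was checked on pheromone genes. The M-factor precursor gene mfm1 gave intensities of 2630, 1929 and 2130 at 25 °C, and mam2, which encodes the receptor of M cells for P-factor, 400, 332 and 315. Markers of P cells were also above background at 25 °C, with 66.2, 65.9 and 66.6 for map2, the P-factor precursor gene, and 65.1, 77.6 and 64.7 for map3, the receptor gene for M-factor. Their part in the results was not tested.

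The shift moved many genes by small amounts and a short list by large ones. At an adjusted p under 0.05 (limma, Benjamini-Hochberg over 2896 genes), 1601 genes changed, which is 55.3% of those tested. Of these, 968 rose (33.4% of the genes) and 633 fell (21.9%). Where a list below is given by counts alone, these shares over all genes are the comparison. An unadjusted p under 0.05 was found for 1748 genes, where chance gives 144.8. The median size of the change was 0.19 on the log2 scale over all genes and 0.34 over the 1601 called, against a median SE of 0.065. In 1538 of the called genes the 3 arrays at 25 °C and the 3 at 37 °C did not overlap. Calls and overlap rest on the same arrays, and some genes that did not pass, such as adh1, were separate too. The share of separate genes among all 2896 is not given here. Among called genes 60.5% had risen. This split depended on the scaling. Quantile normalization, done afresh over the S. pombe genes alone, gave 847 risen and 834 fallen (50.4% risen), and moving every array to 1 common median gave 930 and 741 (55.7%). Without replicate 3 at 37 °C it was 950 and 784 (54.8%). As the cultures were measured in bulk, fewer cells with a transcript and less of the transcript per cell cannot be told apart in any value below.

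Changes of 2-fold or more were found for 85 genes, or 2.94% of those tested. Of them 61 rose (2.11% of the genes) and 24 fell (0.829%). Under quantile normalization the counts were 42 and 28. The limit itself runs through a continuum. Just inside it were dli1, a dynein light intermediate chain gene, at 1.02 on the log2 scale and vht1, a biotin transporter gene, at -1.01, and just outside it were cao2 at 0.99 and ser2, a serine synthesis gene, at -0.97. The call of dli1 was lost under quantile normalization (0.42, adjusted p = 0.0703). Of the 61 genes that rose, 7 were at or below the background level at 25 °C. Set against that level in place of their own value at 25 °C, 5 of them were still at least 2-fold higher at 37 °C, while mei3 and alr2 were at least 1.67-fold and 1.84-fold higher.

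**Figure D1:**
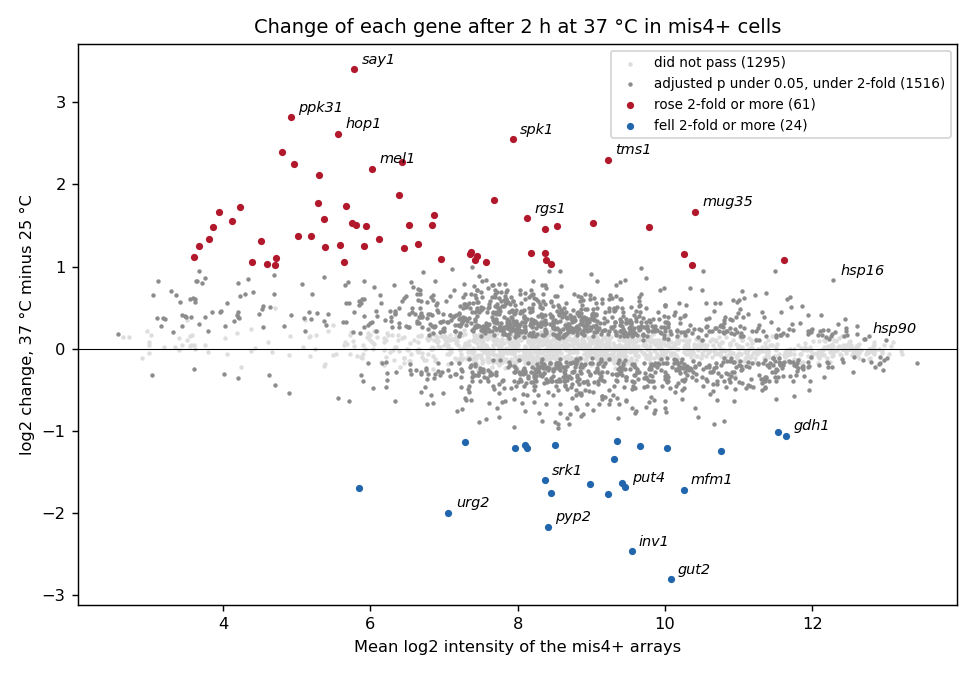
Log2 change from 25 °C to 37 °C (vertical axis) against the mean log2 intensity over the 6 mis4+ arrays (horizontal axis), 1 point per gene, for 2896 genes. Red points are the 61 genes that rose 2-fold or more, blue points the 24 that fell 2-fold or more, dark grey points other genes with adjusted p under 0.05, and light grey points the genes that did not pass. Of the 61 red points 44 lie in the dimmest of 5 equal bins of genes, while the blue points spread over the range of levels.

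Some genes of glycerol and sugar use that glucose is known to repress were among those that fell most, and many signalling genes that sense glucose fell by less than 2-fold. The gene with the largest fall was gut2, which encodes the mitochondrial glycerol-3-phosphate dehydrogenase. Its intensities were 2930, 2758 and 2880 at 25 °C and 416, 396 and 410 at 37 °C. The change was -2.81 ± 0.07 (SE) on the log2 scale, or 7.01-fold lower (adjusted p = 4.96e-11). Next came inv1, the secreted invertase that splits sucrose, with 1782, 1732 and 1754 at 25 °C and 287, 341 and 328 at 37 °C, a change of -2.47 ± 0.08 (SE, adjusted p = 3.87e-10). The replicates of a temperature were close to each other in both genes. Both belong to the 20 largest falls, a set that holds only genes with separate groups. The glycerol dehydrogenase gene gld1 fell from 1487, 1080 and 1146 to 513, 477 and 630 (-1.19 ± 0.16, SE), and the hexose transporter gene ght1 from 530, 326 and 414 to 172, 163 and 217 (-1.18 ± 0.19, SE). Their replicates at 25 °C were spread more widely, and both genes belong to the same set of 20 falls. With a test against a minimum change of 1.5-fold, ght1 no longer passed (adjusted p = 0.097).

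The list of glucose-repressed genes, hexose transport and glycerol as a whole moved both ways. Of its 21 measured members 6 rose, 7 fell and 8 did not pass (7 and 10 without replicate 3 at 37 °C), with a median of -0.06 against 0.04 over all genes. The hexose transporter genes went apart. Besides ght1, ght5, the main high-affinity glucose transporter gene of the species, fell by 0.48 on the log2 scale. In contrast ght6 rose by 1.33, from 53.6, 37.3 and 42.2 to 106, 109 and 116, and ght2 by 0.57. The gluconeogenesis gene fbp1, a classical reporter of glucose repression, stood at 146, 127 and 141 before and 138, 155 and 169 after the shift, a difference of 0.16 that did not pass (adjusted p = 0.31).

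Most signalling genes of the glucose and protein kinase A route were lower after the shift. Like the other lists, theirs was chosen with earlier results of these data known. Of 18 measured members 13 fell (72.2%, against 21.9% of all genes), 3 rose and 2 did not pass, and the median of -0.44 was the lowest of the 41 lists. On the single arrays at 37 °C the list median, set against the mean at 25 °C, was -0.40, -0.45 and -0.35. Quantile normalization moved the median to -0.539. At the receptor end, the glucose receptor gene git3 stood at 577, 563 and 547 at 25 °C and 385, 347 and 410 at 37 °C. Its heterotrimeric G protein fell too, with the alpha subunit gene gpa2 going from 543, 461 and 480 to 263, 288 and 245 and the beta subunit gene git5 from 258, 243 and 228 to 123, 119 and 151. Both of these changes came to -0.90 on the log2 scale, and that of git3 to -0.57. The groups did not overlap in any of the 3 genes.

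The adenylate cyclase gene cyr1, the next step of the route, did not pass, at 0.01 ± 0.06 (SE, adjusted p = 0.914). Both subunits of protein kinase A fell. The catalytic subunit gene pka1 had intensities of 608, 541 and 517 at 25 °C and 322, 306 and 330 at 37 °C (-0.80 ± 0.06, SE), and the regulatory subunit gene cgs1 601, 463 and 491 at 25 °C and 303, 279 and 240 at 37 °C (-0.92 ± 0.11, SE). For cgs2, the phosphodiesterase gene that breaks down cyclic AMP, the change was -0.56 ± 0.17 (SE), a call that was lost without replicate 1 at 25 °C (adjusted p = 0.059) or replicate 2 at 37 °C (adjusted p = 0.0574). Of transcription factors downstream, rst2, an activator of glucose-repressed genes, fell by 0.41 and scr1, a repressor of them, by 0.63. The kinase genes ssp1 and ssp2 of the AMP-activated route were at -0.68 and -0.47. The 3 members that rose were git7 (0.27), amk2 (0.23) and hsp90 (0.12).

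Of the genes of the Sty1 stress MAP kinase pathway more fell than rose. Of 27 measured members 15 fell (55.6%, against 21.9% of all genes), 2 rose and 10 did not pass, and the median was -0.28. The single arrays at 37 °C gave list medians of -0.26, -0.36 and -0.13. The largest falls were in genes that Sty1 itself is known to induce or that act on it. The tyrosine phosphatase gene pyp2, whose product inactivates Sty1, stood at 814, 711 and 658 before the shift and 151, 173 and 158 after it. That is 4.51-fold lower, or -2.17 ± 0.08 (SE, adjusted p = 1.82e-09). For srk1, the kinase gene acting directly below Sty1, the values were 581, 584 and 566 at 25 °C and 186, 173 and 215 at 37 °C, a change of -1.60 ± 0.08 (SE, adjusted p = 1.07e-08). Both genes are among the 20 largest falls, a set that holds only genes with separate groups.

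The transcription factor genes of the pathway also fell. For atf1 the intensities were 557, 602 and 574 at 25 °C and 338, 324 and 374 at 37 °C, a change of -0.74 ± 0.07 (SE), and its partner pcr1 changed by -0.80 ± 0.08 (SE). A further transcription factor gene, prr1, fell by 0.36. Upstream, the phosphorelay gene mpr1 fell by 0.83, while the sensor kinase gene mak1 rose by 0.48. The MAP kinase gene sty1 changed by -0.28 ± 0.06 (SE, adjusted p = 0.00139), and its activating kinase gene wis1 stood at -0.18 (adjusted p = 0.0744), which did not pass. The intensities of wis1 at 37 °C were 793, 753 and 990, and without the highest of them, replicate 3, the gene fell (adjusted p = 4.62e-05). Among the negative regulators, the phosphatase genes pyp1 and ptc1 fell by 0.62 and 0.65. So did csx1, an RNA-binding protein that stabilises the atf1 mRNA, by 0.60.

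**Figure D2:**
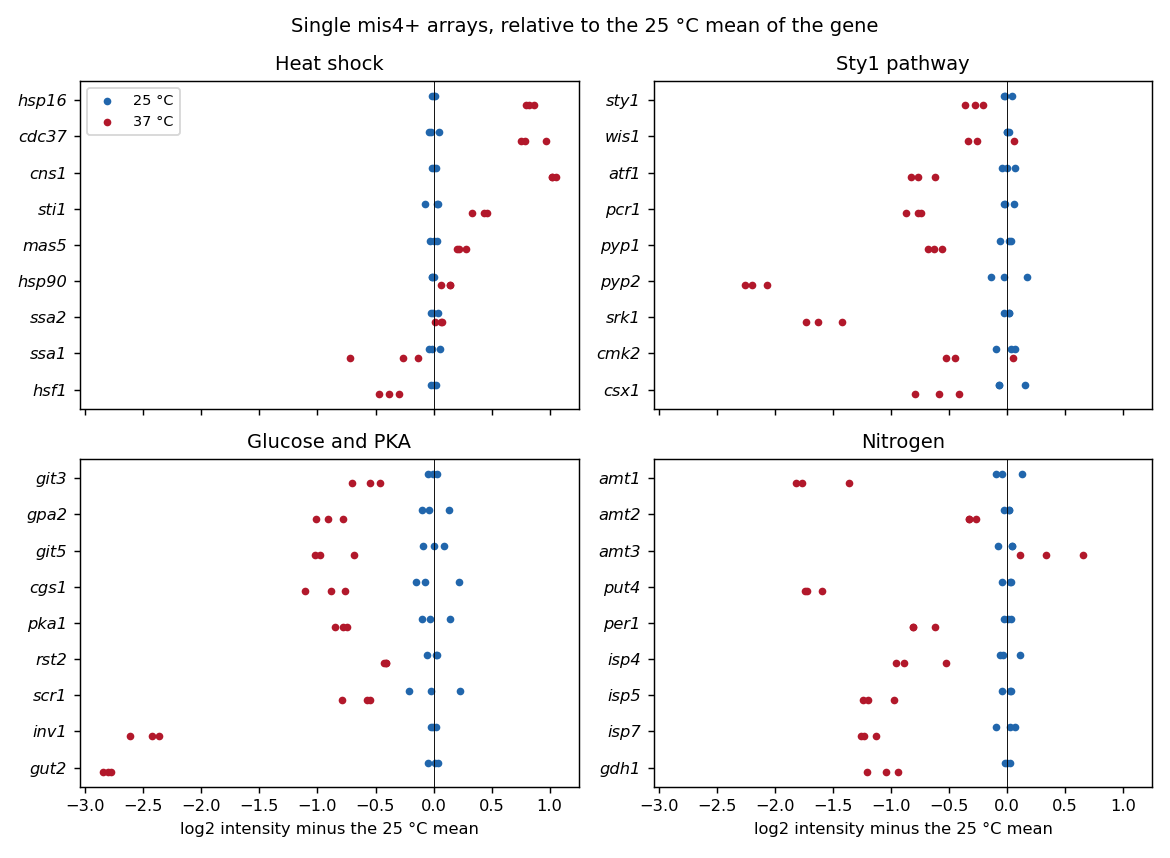
Log2 intensity of single mis4+ arrays minus the 25 °C mean of the same gene (horizontal axis) for genes of 4 panels, with blue points for the 3 arrays at 25 °C and red points for the 3 at 37 °C. The genes were picked for the figure from longer lists. Some members that rose, such as mak1, git7 (0.27) and ght6 (1.33), are not shown. Among the genes shown, most red points of the Sty1, glucose and nitrogen panels lie to the left of 0, as for pyp2 (-2.17) and gut2 (-2.81). In the heat shock panel hsp16, cdc37 and cns1 lie to the right and ssa1 and hsf1 to the left.

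Stress effector genes, which are known to rise together under many stresses, did not move as a block. Of 25 measured core stress effectors and trehalose genes 10 rose (40%, against 33.4% of all genes) and 12 fell (48%, against 21.9%). The other 3 did not pass, and the median was -0.03. The list held both extremes, with 2 members 2-fold or more higher and 5 lower. Among those that fell, the zinc finger transcription factor genes rsv2 and rsv1, which are needed for survival in stationary phase or spore formation, went from 758, 576 and 614 to 187, 179 and 204 and from 149, 73.3 and 101 to 33.1, 32.1 and 30.2. Their changes were -1.76 ± 0.10 (SE) and -1.70 ± 0.23 (SE). The replicates of rsv1 at 25 °C were the most spread of the 20 largest falls, a set that holds only genes with separate groups. The nuclear envelope protein gene ish1, known to respond to starvation and stress, fell from 1240, 1230 and 1162 to 367, 403 and 397 (-1.64 ± 0.05, SE), and rds1 from 2764, 2669 and 2578 to 1006, 1117 and 1266 (-1.25 ± 0.07, SE).

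Catalase, which removes hydrogen peroxide and whose gene ctt1 is a classical target of Atf1, stood lower by 0.92 on the log2 scale, at 2207, 2246 and 2280 before and 1204, 1129 and 1219 after the shift. The largest rise of the list was that of tms1, a dehydrogenase gene of sugar alcohols. It went from 257, 272 and 278 at 25 °C to 1347, 1278 and 1360 at 37 °C, which is 4.94-fold (2.30 ± 0.06, SE, adjusted p = 5.82e-11). The stress-responsive gene sro1 rose from 554, 514 and 506 to 1398, 1544 and 1462 (1.48 ± 0.11, SE). Trehalose is a disaccharide that protects proteins in the heat, and its genes rose modestly. The changes were 0.32 ± 0.04 (SE) for the trehalose-phosphate synthase gene tps1, 0.55 ± 0.05 (SE) for the phosphatase gene tpp1 and 0.36 ± 0.07 (SE) for the trehalase gene ntp1. The glycerol-3-phosphate dehydrogenase gene gpd1 of glycerol synthesis rose by 0.22, and the peroxidase gene gpx1 did not pass (0.14, adjusted p = 0.074).

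Of 23 antioxidant and glutathione genes 8 rose (34.8%, near the 33.4% of all genes) and 9 fell (39.1%, against 21.9%). The other 6 did not pass. The sulfiredoxin gene srx1, which repairs peroxiredoxins, had the largest change of the list. Its intensities were 1067, 876 and 961 at 25 °C and 419, 428 and 478 at 37 °C (-1.13 ± 0.08, SE), with no overlap. Glutathione transferase genes gst2 and gst3 fell by 0.65 and 0.47. The peroxiredoxin gene tpx1 rose by 0.36, the thioredoxin gene trx1 by 0.20 and the superoxide dismutase gene sod1 by 0.22.

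Cytosolic chaperone genes were higher on the whole, by less than 2-fold in all but 1 case. Of 19 measured members of the heat shock list 12 rose (63.2%, against 33.4% of all genes), 4 fell and 3 did not pass, and the median was 0.23. On the arrays at 37 °C it was 0.22, 0.23 and 0.17. With the replicate block 10 members rose and 4 fell. The largest rise was that of cns1, a co-chaperone gene of Hsp90 and Hsp70, from 247, 242 and 245 at 25 °C to 495, 496 and 507 at 37 °C (1.03 ± 0.05, SE, adjusted p = 7.06e-09). Another co-chaperone gene, cdc37, whose product brings kinases to Hsp90, went from 515, 509 and 540 to 904, 880 and 1022 (0.84 ± 0.05, SE). The small heat shock protein gene hsp16 was bright at both temperatures, with 3778, 3699 and 3750 at 25 °C and 6484, 6815 and 6612 at 37 °C, a change of 0.83 ± 0.05 (SE). The groups were apart in all 3 genes.

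Chaperone genes of the Hsp70 and Hsp90 families hardly differed or were lower. For hsp90 the intensities were 6499, 6426 and 6427 at 25 °C and 7133, 7123 and 6762 at 37 °C, a change of 0.12 ± 0.04 (SE, adjusted p = 0.0251). This call was lost when an array was left out (adjusted p from 0.0551 to 0.0713), except for replicate 3 at 37 °C, and with the replicate block (adjusted p = 0.0648). Of the Hsp70 genes, ssa2 and sks2 did not pass (0.05 and 0.06). The third, ssa1, fell by 0.37 (adjusted p = 0.0161), with 2885, 2846 and 3031 at 25 °C and 1776, 2423 and 2658 at 37 °C. The lowest of these is replicate 1 at 37 °C, and without replicate 3 at 25 °C the call was lost (adjusted p = 0.0524). The J-domain protein genes psi1 and mas5 rose by 0.45 and 0.23, and the joining co-chaperone gene sti1 by 0.41. The gene of heat shock factor itself, hsf1, fell from 725, 736 and 743 to 562, 530 and 598 (-0.38 ± 0.05, SE, adjusted p = 2.59e-05). Other members that fell were bag102 (-0.38) and the ribosome-bound J-protein gene zuo1 (-0.35).

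Folding systems of other compartments showed smaller or mixed changes. Among 10 chaperonin and prefoldin genes 3 rose (30%, against 33.4% of all genes) and 3 fell (30%, against 21.9%). Highest was pfd5 at 0.45 and lowest pfd3 at -0.29. Of 32 genes of mitochondrial chaperones and import 12 fell (37.5%), 6 rose (18.8%) and 14 did not pass. The median was -0.03, and -0.100 under quantile normalization. The protease gene lon1 of the matrix fell from 1033, 1061 and 1180 to 801, 639 and 574 (-0.71 ± 0.12, SE). The small chaperonin gene hsp10 rose by 0.51, but its large partner mcp60 stood at 0.01 (adjusted p = 0.882). The mitochondrial Hsp70 gene ssc1 rose by 0.18 and its nucleotide exchange factor gene mge1 fell by 0.49. In the endoplasmic reticulum, 6 of 12 folding genes rose (50%) and 4 fell (33.3%), with a median of 0.21. The chaperone gene bip1 rose by 0.21, cnx1 by 0.30 and the oxidase gene ero11 by 0.53, and the glucosyltransferase gene gpt1 fell by 0.47.

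Of 55 genes of ubiquitin and the proteasome 23 rose (41.8%, against 33.4% of all genes), 6 fell (10.9%, against 21.9%) and 26 did not pass. The ubiquitin-conjugating enzyme gene ubc6 of the endoplasmic reticulum rose most, from 227, 222 and 212 at 25 °C to 443, 486 and 557 at 37 °C (1.17 ± 0.07, SE), followed by ubc14 (0.67). The segregase gene cdc48 was 0.30 higher and the proteasome subunit gene rpn6 0.38. Among those that fell were the ubiquitin ligase gene pub3 (-0.35) and the proteasome subunit gene rpn10 (-0.28). For autophagy and vacuolar proteases 8 rose and 8 fell of 24, and under quantile normalization 5 and 11. The ubiquitin-like protein gene atg8 fell by 0.40 and the kinase gene atg1 by 0.33, while atg12 rose by 0.52 and atg5 by 0.33.

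Some permease genes that cells are known to turn on when nitrogen is poor fell strongly. The proline permease gene put4 went from 1283, 1289 and 1222 at 25 °C to 376, 381 and 417 at 37 °C, 3.24-fold lower (-1.69 ± 0.06, SE, adjusted p = 3.87e-10). Of the 3 ammonium transporter genes, amt1 fell from 975, 862 and 835 to 262, 252 and 346 (-1.65 ± 0.10, SE), and amt2 fell by 0.31. The third, amt3, rose by 0.37, with 28.6, 31.1 and 31.1 before and 32.7, 38.1 and 47.5 after, though under quantile normalization it stood at -0.14 (adjusted p = 0.305). The temperature groups were separate for put4, amt1, amt2 and amt3. For put4 and amt1, among the 20 largest falls, this was a condition of that set. Genes named isp, found for their rise during sexual differentiation, held further falls. The amino acid permease gene isp5 fell by 1.14, from 237, 236 and 225 to 98.5, 101 and 118, and the dioxygenase gene isp7, a regulator of permeases, by 1.21, from 433, 444 and 397 to 177, 181 and 194. The oligopeptide transporter gene isp4 fell by 0.79 and the permease gene per1 by 0.75. In the whole list of 25 plasma membrane transporters 7 rose and 8 fell, and under quantile normalization 5 and 11. The NADP-dependent glutamate dehydrogenase gene gdh1, which fixes ammonium, fell from 4686, 4561 and 4601 to 2401, 2241 and 1999 (-1.06 ± 0.06, SE).

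Amino acid synthesis was lower as a list. Of 44 measured genes 27 fell (61.4%, against 21.9% of all genes), 4 rose and 13 did not pass, with a median of -0.21. The medians on the 3 shifted arrays were -0.14, -0.21 and -0.22. Besides gdh1, the largest falls were those of ser2 (-0.97), arg4 (-0.61), his2 (-0.55) and sam1, the S-adenosylmethionine synthetase gene (-0.51). The glutamine synthetase gene gln1 fell by 0.24. The largest rises were those of met11 (0.23) and met16 (0.21). The glycine cleavage gene gcv1, which is not in this list, was among the 20 largest falls, from 1653, 1594 and 1526 to 680, 640 and 748 (-1.21 ± 0.06, SE). In purine and pyrimidine synthesis 8 of 17 fell (47.1%, against 21.9% of all genes) and 4 rose (23.5%, against 33.4%). The median was -0.16, with ade5 lowest (-0.64) and ade7 highest (0.55). The uracil-regulated gene urg2 fell from 263, 275 and 264 to 77.4, 64.3 and 59.6 (-2.00 ± 0.08, SE), the fourth largest fall.

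**Figure D3:**
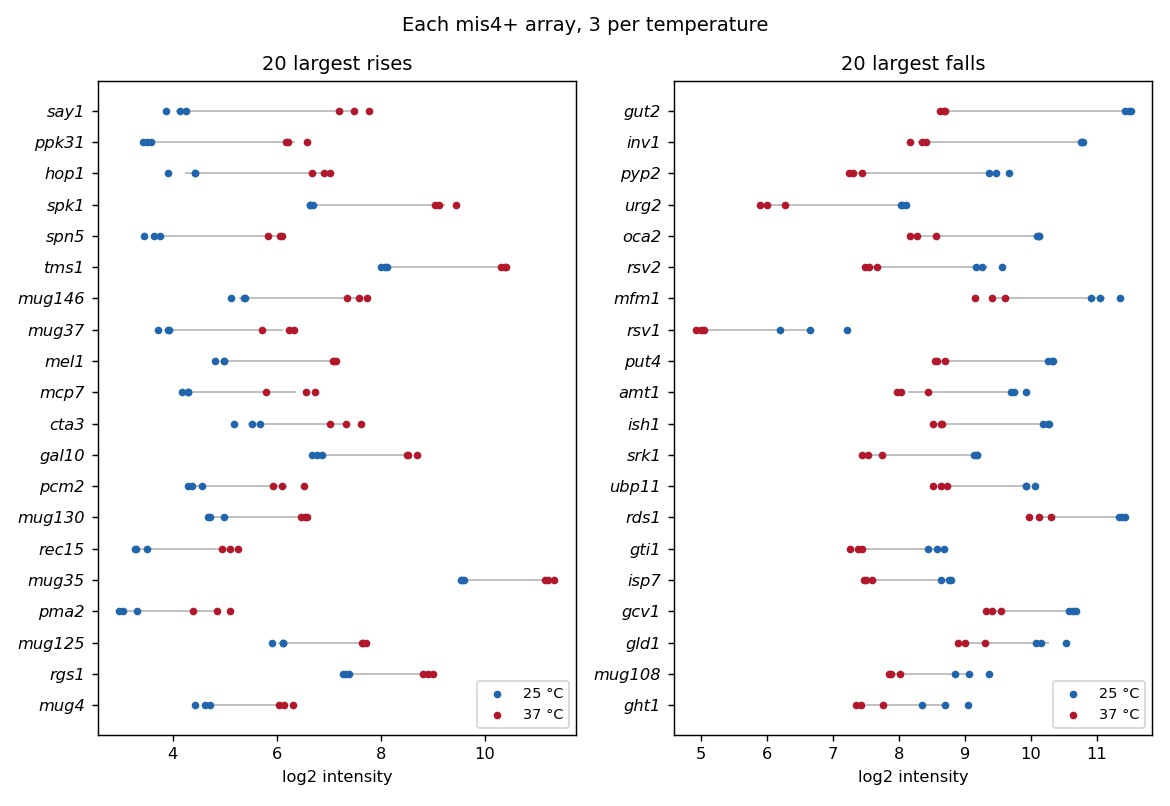
Log2 intensity of each mis4+ array (horizontal axis) for the 20 genes with the largest rise (left) and the 20 with the largest fall (right), ordered by the size of the change. Blue points are the 3 arrays at 25 °C, red points the 3 at 37 °C, and the grey line joins the group means. Only genes whose red and blue points are separate could enter the 40.

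Genes of meiosis and spore formation made up much of the 2-fold rises. The gene with the largest rise of all, say1, named after a sterol deacetylase of budding yeast, also carries a mug name, given to genes with higher transcripts in meiosis. Its intensities were 17.5, 19.1 and 14.6 at 25 °C and 146, 179 and 218 at 37 °C, 10.55-fold higher (3.40 ± 0.17, SE, adjusted p = 1.52e-08). The second, the protein kinase gene ppk31, likewise has a mug name and went from 11.3, 10.7 and 12 to 74.7, 72.3 and 96.4 (2.82 ± 0.09, SE). A mug or meu name, as symbol or synonym, was held by 200 of the 2896 genes (6.91%), by 26 of the 61 that rose 2-fold or more (42.6%), and by 1 of the 24 that fell (4.17%). Of the 200, 107 rose and 24 fell, and their median was 0.22. Over all genes 33.4% rose and 21.9% fell, and the median was 0.04.

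The list of meiosis and spore formation held 153 measured genes, of which 143 were above background. Of these 153 members 84 rose (54.9%), 16 fell and 53 did not pass, with 23 risen and 1 fallen 2-fold or more. The median was 0.23, and 0.26, 0.22 and 0.29 on the arrays at 37 °C. The smaller changes depended on the scaling: quantile normalization gave 51 risen and 44 fallen members and a median of 0.031, with 16 risen 2-fold or more. A fall beyond 2-fold was seen for mug108, from 657, 460 and 536 to 231, 235 and 258 (-1.18 ± 0.16, SE).

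Genes of meiotic chromosome axes and recombination were among the strongest of them. The axis protein gene hop1 rose from 21.5, 21.6 and 15 at 25 °C to 121, 102 and 130 at 37 °C, 6.13-fold (2.62 ± 0.20, SE, adjusted p = 4.58e-07). Of the factors that form meiotic DNA breaks, rec15 went from 9.85, 11.4 and 9.67, which is at background, to 34.2, 38 and 30.9, at least 3.20-fold higher (adjusted p = 4.96e-08), and rec24 from 13.4, 14.2 and 16.1 to 33.8, 29.7 and 46.2 (1.31 ± 0.14, SE). The nuclease gene rec12, which makes the breaks, rose by 0.79, and the linear element gene mug20 by 1.37. The partners mcp7 and meu13, which act in strand exchange, both rose. The first had 19.5, 19.5 and 18 at 25 °C and 107, 55.2 and 94.3 at 37 °C (2.12 ± 0.27, SE), and the second, at background at 25 °C with 11, 8.77 and 10.9, reached 35.5, 26 and 28.7, at least 2.78-fold higher. The strand exchange recombinase gene dmc1 rose by 0.72. The meiotic cohesin subunit gene rec11, below the background level at 25 °C with 9.98, 9.61 and 8.65, reached 17.4, 17.4 and 15.2, at least 1.55-fold higher (adjusted p = 1.06e-04). In contrast rec10 and rec6 did not pass (-0.21 and -0.20), and rec7 and the meiotic cohesin gene rec8 were below the background level at both temperatures. Without replicate 3 at 37 °C, rec10 and rec6 fell (adjusted p = 0.0438 and 0.0179), as they did with the replicate block (0.0476 and 0.0488). Quantile normalization gave -0.73 (adjusted p = 1.86e-04) for rec10 and -0.31 (0.00156) for rec6. Re-centring gave -0.23 (0.0356) and -0.22 (0.0168). Each of hop1, rec24 and mcp7 was higher in every shifted culture than in any unshifted one. For hop1 and mcp7, among the 20 largest rises, this was a condition of that set.

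Septins are filament proteins, and fission yeast has a set of them for spore formation. The sporulation septin gene spn5 rose from 13.4, 12.5 and 10.9 to 57.3, 68.9 and 66.7, 5.25-fold (2.39 ± 0.13, SE, adjusted p = 3.65e-08). Its partners spn6 and spn7 rose from 23.3, 30.8 and 27.6 to 59.2, 63.5 and 69.2 and from 77.4, 97.3 and 83.3 to 179, 173 and 197, which is 1.24 ± 0.09 (SE) and 1.09 ± 0.08 (SE). In spn6 and spn7 the temperatures were separate, which the choice of the 20 largest rises required of spn5. Further genes of the list with large rises, whose roles are known less well, were mug146, from 34.9, 41.8 and 41.3 to 163, 213 and 193, mug37, from 15.1, 13.1 and 14.9 to 81, 75 and 52.7, and mug35, from 750, 754 and 779 to 2390, 2305 and 2602. Their changes were 2.27, 2.25 and 1.67, followed by mug130 (1.74), mug125 (1.63) and mug4 (1.58). The spore formation gene spo7 rose by 0.65, while spo14 and spo15 did not pass (0.03 and -0.06).

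Mating and pheromone response genes moved in both directions, with large changes on each side. Of 36 measured genes of mating and nitrogen starvation 15 rose (41.7%, against 33.4% of all genes) and 9 fell (25%, against 21.9%). The other 12 did not pass, and the median was 0.07. On the single arrays at 37 °C the list median was 0.08, 0.02 and 0.20, highest on replicate 3. The 3 genes of M-factor, the pheromone that h- cells secrete, differed among themselves. For mfm1 the intensities were 2630, 1929 and 2130 before and 680, 573 and 778 after the shift, 3.29-fold lower (-1.72 ± 0.13, SE, adjusted p = 3.92e-07). The second gene, mfm2, stood at 3326, 3108 and 3304 at 25 °C and 3451, 3413 and 2808 at 37 °C and did not pass (-0.02, adjusted p = 0.871). For mfm3, read by a probe set that is marked as shared between sequences, the change was -0.73 ± 0.08 (SE).

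Of the machinery that handles the pheromone, the M-factor exporter gene mam1 rose from 282, 253 and 292 to 484, 497 and 619 (0.95 ± 0.10, SE). The surface protein gene mam3 of M cells, which sticks mating cells together, rose from 110, 120 and 123 to 280, 270 and 227 (1.13 ± 0.11, SE). Among receptors, mam2 did not pass (0.15, adjusted p = 0.174, and 0.0242 without replicate 1 at 25 °C) and map3 rose by 0.34, while the P-factor gene map2 fell by 0.17. Both calls were lost without some single arrays, with adjusted p of up to 0.0988 for map3 (replicate 3 at 37 °C) and 0.112 for map2 (replicate 1 at 37 °C). Under quantile normalization map3 stood at 0.12 (adjusted p = 0.281). In the signalling chain below, the largest change was that of spk1, the pheromone MAP kinase gene. It went from 99.6, 104 and 100 at 25 °C to 557, 531 and 700 at 37 °C, 5.84-fold higher (2.55 ± 0.11, SE, adjusted p = 3.97e-09). The kinases above it in the cascade were smaller in change, with byr1 at 0.29 and byr2 at -0.31. The G protein regulator gene rgs1, which dampens the response, rose from 162, 154 and 167 to 484, 453 and 518 (1.59 ± 0.10, SE). The pheromone G protein subunit gene gpa1 rose by 0.31.

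The switch into meiosis also held opposite members. The transcription factor gene ste11, which starts sexual differentiation, stood at 845, 730 and 702 at 25 °C and 804, 764 and 972 at 37 °C, a difference of 0.15 that did not pass (adjusted p = 0.317). The RNA-binding protein gene mei2 rose by 0.58. The inhibitor gene mei3, which is at background at 25 °C with 7.73, 9.3 and 7.94, reached 20.6, 15.2 and 18.3, at least 1.67-fold higher (adjusted p = 2.60e-05), and pat1, the kinase gene that Mei3 inhibits, fell by 0.52. The fusion gene dni2, not in the list, rose from 31.5, 33 and 30.2 to 84.3, 101 and 90.3 (1.53 ± 0.06, SE).

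The galactose genes rose by unequal amounts. Fission yeast cannot normally grow on galactose, though it has the genes of the Leloir pathway next to each other on the chromosome. The epimerase gene gal10 rose from 117, 102 and 110 at 25 °C to 365, 370 and 415 at 37 °C, 3.50-fold (1.81 ± 0.09, SE), and its neighbour gal1, the galactokinase gene, from 223, 204 and 234 to 572, 603 and 690 (1.49 ± 0.12, SE). The third, gal7, rose by 0.24, a call that was lost without replicate 2 at 25 °C (adjusted p = 0.0736), with only the mis4+ arrays in the fit (0.0637) and under quantile normalization (0.0906). The alpha-galactosidase gene mel1, which lies elsewhere, had 31.5, 31.6 and 28.1 at 25 °C and 138, 136 and 141 at 37 °C (2.19 ± 0.08, SE, adjusted p = 1.07e-09), and its neighbour pcm2, a protein repair methyltransferase gene, 20.6, 19.6 and 23.5 at 25 °C and 60.6, 68.5 and 91.6 at 37 °C (1.77 ± 0.17, SE). Every shifted culture was above every unshifted one in these genes. For gal10, mel1 and pcm2, among the 20 largest rises, this was a condition of that set.

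Ion pump and metal genes were changed singly. The P-type ATPase gene cta3, known for its induction by salt, rose from 45.9, 51.2 and 36.2 to 131, 161 and 197 (1.87 ± 0.17, SE). Of the proton pump genes, the main one, pma1, stood at 4511, 4640 and 4415 at 25 °C and 4468, 4604 and 4729 at 37 °C and did not pass (0.02). The second, pma2, was at or below background at 25 °C with 8.22, 9.91 and 7.84 and reached 20.8, 28.7 and 34.2, at least 2.55-fold higher. The zinc transporter gene zrt1 rose by 0.94 and the sodium exchanger gene nhe1 by 0.63. In the iron list, 6 of 16 rose (37.5%, against 33.4% of all genes) and 5 fell (31.2%, against 21.9%). The vacuolar ABC transporter gene abc3 was highest. It went from 357, 280 and 285 to 722, 978 and 964 (1.53 ± 0.12, SE). The siderophore synthesis gene sib1 rose by 0.98, the siderophore transporter gene str1 fell by 0.72, and str3 did not pass (-0.16, adjusted p = 0.592). The iron repressor gene fep1 fell by 0.45 and php4, its counterpart that acts in iron shortage, rose by 0.24. Of 8 copper genes 1 rose and 2 fell (1 and 4 under quantile normalization), and of 9 thiamine genes 1 rose and 3 fell (1 and 4). The copper transporter gene ctr5 fell by 0.39, and nmt1, whose promoter thiamine removal turns on, by 0.26.

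A further 2-fold rise outside these groups, named after its values were seen, was that of hri1, a kinase gene of the translation factor eIF2 (1.46, from 198, 200 and 199 to 480, 527 and 640). Likewise named after their values were seen, the dynactin gene jnm1 and the dynein chain gene dli1 rose by 1.10 and 1.02, and the kinetochore gene nnf1 by 1.03. Among the falls outside these groups were oca2, a protein kinase gene, from 1118, 1112 and 1089 to 289, 310 and 377 (-1.77 ± 0.08, SE), and ubp11, a deubiquitinating enzyme gene, from 1070, 976 and 977 to 426, 400 and 368 (-1.34 ± 0.08, SE). The transcription regulator gene gti1 fell from 412, 349 and 382 to 153, 167 and 174 (-1.21 ± 0.10, SE). All 3 are among the 20 largest falls, a set that holds only genes with separate groups.

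**Figure D4:**
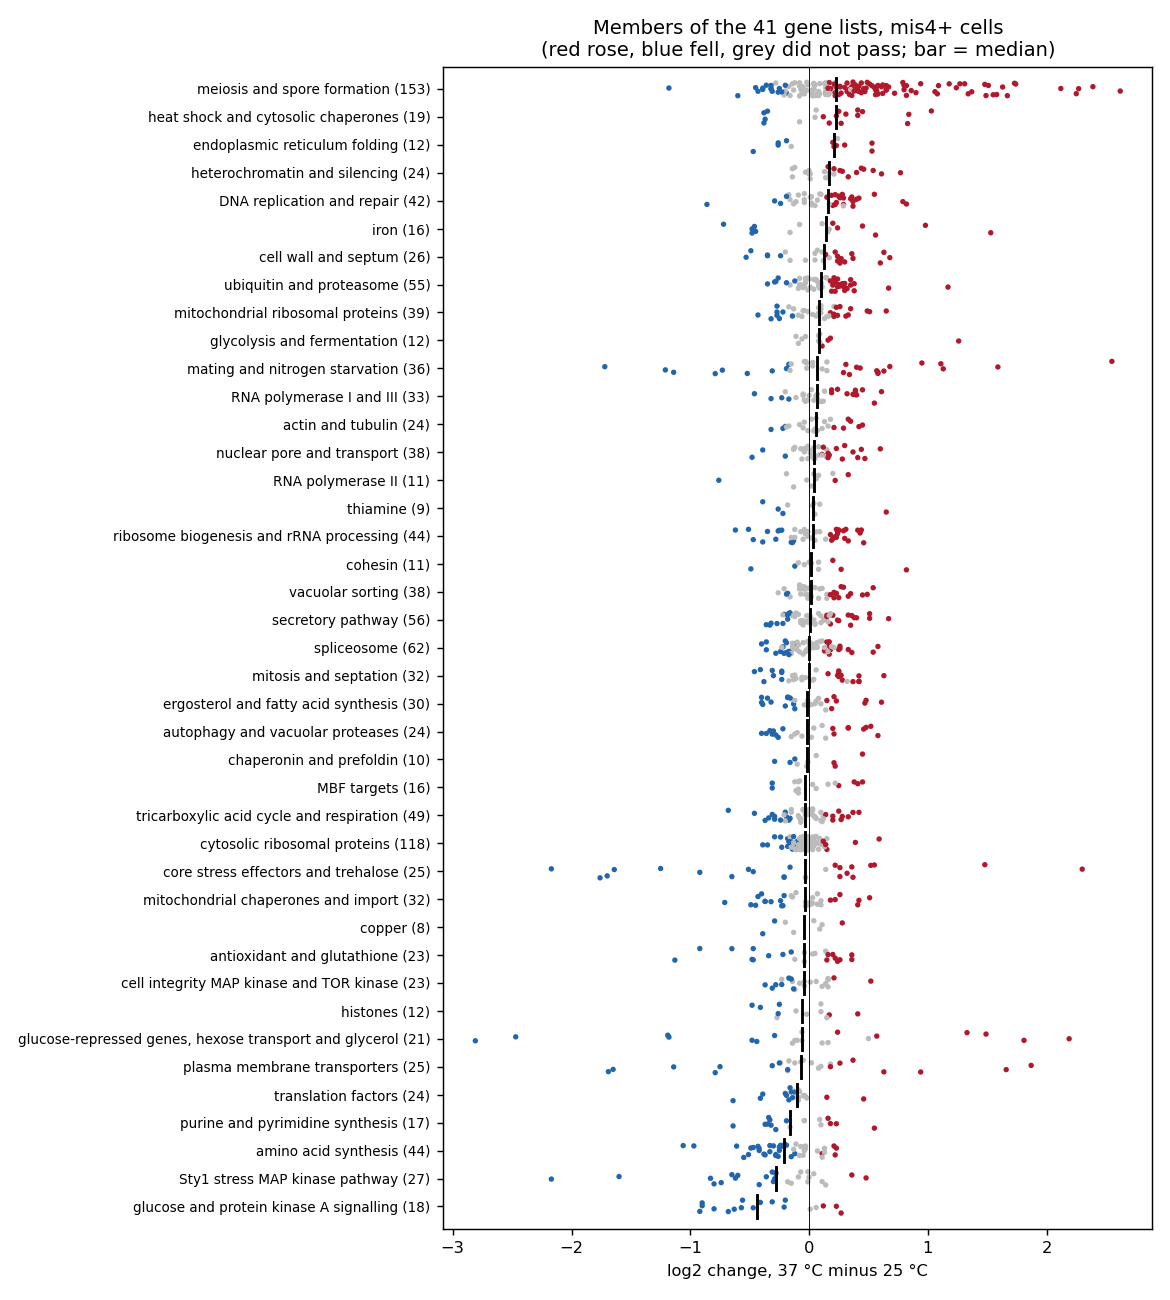
Log2 change from 25 °C to 37 °C (horizontal axis) of each measured member of the 41 gene lists, ordered by the median of the list (black bar), with the number of measured members in brackets. Red points rose and blue points fell at adjusted p under 0.05, and grey points did not pass. The medians run from -0.44 for glucose and protein kinase A signalling to 0.23 for meiosis and for heat shock, and the widest lists hold both large rises and large falls.

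Genes of the cell cycle lists changed by less than 2-fold. Whether all cells stayed in G1 was not tested. Of 16 targets of MBF, the complex of Cdc10 and Res proteins that the arrest acts on, 4 rose and 2 fell (median -0.03). Quantile normalization gave 4 risen and 6 fallen and a median of -0.113. The replication licensing gene cdc18 rose from 104, 92.7 and 102 to 126, 144 and 126 (0.41 ± 0.08, SE), the checkpoint gene mrc1 rose by 0.45 and suc22, a ribonucleotide reductase gene, by 0.38. The cyclin gene cig2 did not pass (-0.11, adjusted p = 0.128). Histone genes, which are made in S phase, had 2 risen and 4 fallen of 12 (4 and 6 under quantile normalization). The changes ran from -0.48 for hht3 to 0.41 for hhf2, and hhf3 and hht1 are read by probe sets shared between sequences. In mitosis and septation 12 of 32 rose and 8 fell, and under quantile normalization 8 rose and 14 fell. The B-type cyclin gene cdc13 fell by 0.23, the securin gene cut2 by 0.38, and the kinesin gene klp6 rose by 0.63. Of 42 DNA replication and repair genes 20 rose (47.6%, against 33.4% of all genes) and 4 fell, and under quantile normalization 19 and 8. The clamp loader gene rfc3 rose most, by 0.82, and rad1 by 0.79, while the checkpoint gene rad26 fell from 255, 262 and 250 to 135, 134 and 154 (-0.86 ± 0.07, SE).

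The cohesin list, which is the subject of the series, held no change of 2-fold in mis4+ cells. Of 11 measured members 3 rose and 2 fell, or 1 with the replicate block. The meiotic subunit gene rec11 rose most (0.82), from below the background level, as given above. The loader gene mis4 had intensities of 254, 263 and 279 at 25 °C and 339, 302 and 322 at 37 °C (0.27 ± 0.07, SE, adjusted p = 0.00531), and its partner ssl3 rose by 0.20, a call that was lost without any one of 4 arrays (adjusted p from 0.0772 to 0.105). The release factor gene wpl1 fell by 0.49. The core ring genes psm1, psm3 and rad21 and the subunit gene psc3 did not pass (0.02, -0.00, -0.09 and 0.08). Silencing genes rose or did not pass. Of 24 heterochromatin genes 11 rose (45.8%, against 33.4% of all genes) and 0 fell (against 21.9% of all genes), with a median of 0.17. That median was 0.36 on replicate 3 at 37 °C and 0.14 and 0.07 on the others, and quantile normalization gave 8 risen and 3 fallen. The methyltransferase complex gene rik1 rose from 158, 158 and 148 to 241, 256 and 294 (0.77 ± 0.07, SE), the Argonaute gene ago1 by 0.61, and the RNA-dependent RNA polymerase gene rdp1 by 0.54. The heterochromatin protein gene swi6 stood at -0.14 (adjusted p = 0.126), and it fell without replicate 3 at 37 °C (adjusted p = 0.018).

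Genes of the translation machinery, which together make up much of the mRNA of a growing cell, changed little in the median. More translation factor genes fell than rose. Of 118 cytosolic ribosomal protein genes 5 rose (4.24%), 19 fell and 94 did not pass, and the median was -0.03. With the replicate block 3 rose and 14 fell. The range ran from -0.39 for rpl1603 to 0.59 for rpl3002, a paralog gene with 1673, 1679 and 1659 before and 2467, 2517 and 2557 after the shift. Ribosomal proteins have paralogs of nearly the same sequence, so a probe set may read both. Ribosome biogenesis genes had 18 risen and 12 fallen of 44 (median 0.03). The helicase gene mtr4 of RNA decay was lowest (-0.62) and rlp7 highest (0.46). Of 24 translation factor genes 10 fell (41.7%, against 21.9% of all genes) and 2 rose (8.33%, against 33.4%), with a median of -0.10. Quantile normalization gave 6 fallen and 2 risen, re-centring 14 and 1. Without replicate 3 at 37 °C it was 14 and 2. Among them gcn2, another kinase gene of eIF2, rose by 0.46 and sce3 fell by 0.64. In RNA polymerases I and III 12 of 33 subunit and factor genes rose and 4 fell, and in RNA polymerase II 2 rose and 1 fell of 11 (4 and 2 under quantile normalization, and 2 and 3 without replicate 3 at 37 °C). The gene that fell was rpb9, from 193, 188 and 187 to 130, 106 and 101 (-0.76 ± 0.08, SE).

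Energy metabolism was close to level. Glycolysis and fermentation had 4 risen and 0 fallen genes of 12, and apart from eno102, the second enolase gene, which rose by 1.26, its changes lay between -0.11 (tpi1) and 0.18 (pfk1). Of 49 genes of the tricarboxylic acid cycle and respiration 9 rose and 12 fell, and under quantile normalization 10 and 9, with etp1 lowest (-0.68) and the citrate synthase gene cit1 at -0.46. Mitochondrial ribosomal protein genes had 12 risen and 8 fallen of 39, and under quantile normalization 11 and 13. In ergosterol and fatty acid synthesis 7 rose and 11 fell of 30 (5 and 8 with the replicate block). The fatty acid synthase genes fas1 and fas2 fell by 0.20 and 0.40, and the sterol genes erg1 and erg31 rose by 0.48 and 0.61.

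Of 26 cell wall genes 12 rose (46.2%, against 33.4% of all genes) and 5 fell (19.2%, against 21.9%). The glucan modifying gene gas1 rose from 2691, 2767 and 2521 to 3842, 4159 and 4338 (0.63 ± 0.06, SE), psu1 by 0.68 and the alpha-glucan synthase gene mok13 by 0.60. The chitin synthase homolog gene chs1 fell by 0.53. In the pathways of cell integrity and TOR, 2 of 23 rose (8.7%, against 33.4% of all genes) and 7 fell (30.4%, against 21.9%). The protein kinase C genes went opposite ways, with pck1 rising by 0.52 and pck2 falling by 0.37, and the MAP kinase gene pmk1 did not pass (-0.12). Of actin and tubulin genes 6 rose and 3 fell of 24, and act1 did not pass (0.02, with 5813, 5861 and 5665 at 25 °C and 5639, 5848 and 6137 at 37 °C). The tropomyosin gene cdc8 rose by 0.45.

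Lists of housekeeping processes had few members with large changes. In vacuolar sorting 12 rose and 2 fell of 38 (4 fell with the replicate block), and under quantile normalization 11 and 8. The secretory pathway had 14 risen and 10 fallen of 56 (under quantile normalization 13 and 14), from -0.36 for ypt3 to 0.67 for apl5. Of 62 spliceosome genes 13 rose and 13 fell, and under quantile normalization 11 and 19, the extremes being lsm1 (-0.40) and prp17 (0.58). In nuclear pore and transport 13 rose and 3 fell of 38, from -0.48 for nup131 to 0.60 for kap114.

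The direction of change went with the brightness of the probe set, which is not a measure of transcript number between genes. When the genes were ordered by their mean level and divided into 5 bins of equal size, the median change was 0.17 in the dimmest, then 0.09, 0.05 and 0.02, and -0.03 in the brightest. In the dimmest bin 270 genes rose and 77 fell, and in the brightest 124 rose and 166 fell. Of the 61 rises of 2-fold or more, 44 were in the dimmest bin. The list of meiosis and spore formation had 109 of its 153 members and 21 of its 23 rises of 2-fold or more in the dimmest bin. The part of brightness in the results on single lists was not tested. The probe sets of the other yeast, which set the background level, had a median change of -0.01. By chromosome the response was even, with medians of 0.04, 0.04 and 0.05 on chromosomes I, II and III and 54.9%, 56.1% and 54.6% of genes changed. There were 5 pairs of next neighbours in gene order among the 85 genes, namely pcm2 with mel1, abc3 with mug14 (1.18), gal10 with gal1, mug146 with ght6, and oca2 with gnr1. In the last pair the changes were opposite, as gnr1, a G protein beta subunit gene, rose by 1.05.

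Whether the response was particular to mis4+ was tested against the same shift in mis4-367 cells, in cultures of their own. In mis4-367, 1633 genes changed (56.4% of those tested), and 97 changed 2-fold or more (3.35%). The difference between the responses passed for 0 of 2896 genes (0%) in limma, with 141 at an unadjusted p under 0.05 and a smallest adjusted p of 0.125. Of the 85 genes with 2-fold changes in mis4+, 85 changed in the same direction in mis4-367 and 80 of them 2-fold or more. Among these 85 the responses lay farthest apart, in either direction, in mcp7, at 2.12 in mis4+ and 1.11 in mis4-367, and in mug14, at 1.18 and 1.88. The SE of the difference was 0.39 for mcp7 and 0.21 for mug14, and neither passed (adjusted p = 0.824 for both). For gut2 the changes were -2.81 and -2.80, for say1 3.40 and 3.76, and for hop1 2.62 and 2.52. The smallest p-values of the difference were those of mug184 (0.41 ± 0.07, SE), mel1 (0.62 ± 0.11, SE), tms1 (0.45 ± 0.08, SE) and aes1 (0.55 ± 0.10, SE), each with an adjusted p of 0.125, and of pof5 (-0.31 ± 0.07, SE, adjusted p = 0.721). In mis4+ itself aes1 fell by 0.51, and mug184 and pof5 did not pass (0.03 and 0.01).

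**Figure D5:**
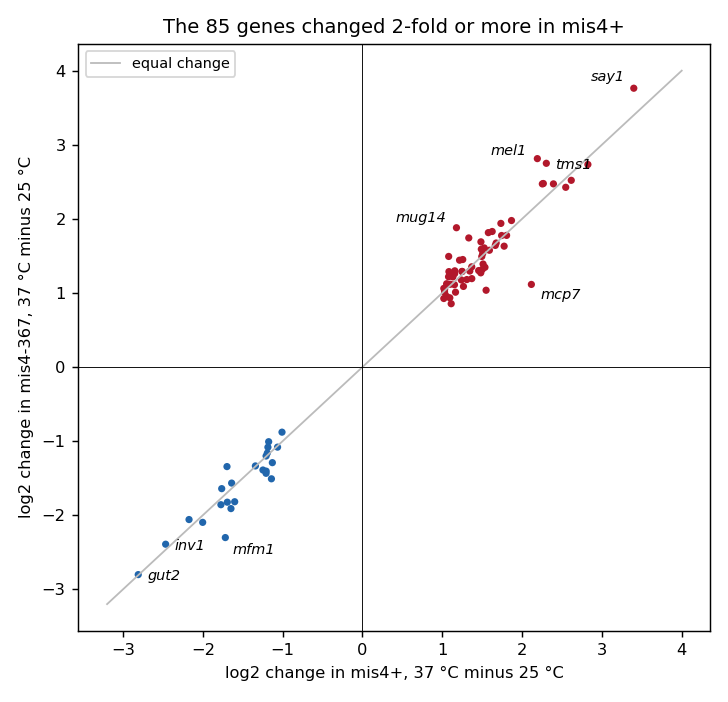
Log2 change from 25 °C to 37 °C in mis4-367 (vertical axis) against that in mis4+ (horizontal axis) for the 85 genes that changed 2-fold or more in mis4+, with a grey line of equal change. Red points rose and blue points fell. All 85 points have the same sign in both strains, and mcp7, mug14 and mfm1 lie among the farthest from the line.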

How the data were processed

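Total RNA of 12 cultures was labelled with biotin by a one-cycle kit and read on GeneChip arrays that carry probe sets of S. pombe and of another yeast, per the labels' protocols. The authors deposited 1 intensity per probe set and array. Per the submitters' processing notes these intensities come from RMA (no version named). RMA corrects background, gives all arrays the same distribution over the probes of both species and summarises the probes of a set. It is known for log2 output, while the deposited values are on a linear scale and reach 12169. How they were returned to that scale is not stated in the labels. RMA compresses the changes of dim probe sets, and a general shift of S. pombe RNA would be partly evened out.

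The log2 of each value was taken with no pseudocount added. Of 10928 probe sets, 2914 were paired with 1 S. pombe gene by the platform table and the reference table (assembly ASM294v3, 5124 protein-coding genes), 20 with several genes, 2601 with another yeast, 213 were controls, 3 matched nothing and 5177 had no gene name. The brightest probe set was used for 14 genes with several, which left 2896 genes, 13 of them on probe sets shared between sequences. Symbols were updated for 113 genes. The background level, log2 3.42, is exceeded by 5% of those 2601 probe sets in their mean over all 12 arrays (percentile 95). At-least folds set the mean at 37 °C against this level. Depth has no counterpart here, and the number of arrays limits the precision.

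Changes were tested with limma 3.58.1 in R 4.3.3 (lmFit, contrasts.fit and eBayes with default settings) in 1 fit of 4 group means over 12 arrays. All p-values are adjusted by Benjamini-Hochberg over 2896 genes unless called unadjusted, and SE is that of the log2 change. Simulated data with known changes checked the fit. It recovered 100 of 100 genes changed by 1 on the log2 scale and 69 of 100 changed by 0.3, with 7 false calls among 2696 unchanged genes. Noise was independent between genes and arrays, so the simulation does not cover shifts of whole arrays or shared cultures. Figures were drawn with matplotlib 3.10.9.

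The genes and the 41 lists were chosen with earlier results of these data known, and lists are described by counts and medians, without a test. From the lists 8 members were dropped because their names belong to other genes. Named genes are the 20 largest rises and falls, the key members, extremes and small lists in full, the 5 smallest p-values of the difference between strains (547 by this rule), and 31 named after their values were seen. The 20 largest rises and falls were taken among called genes above background whose temperature groups did not overlap. In the marker list planned for the mating types, mam2 and map3 stood under the opposite type, and their known roles are used instead. A search of promoters for motifs and the printing of promoters and proteins were planned and not run, because no sequence was used here. Per the series' design text, inoculates were harvested before and after the shift, which ties arrays of the same replicate number to the same culture if the numbers name inoculates. In the values, deviations of same-numbered mis4+ arrays from their group means correlated at -0.070, 0.030 and -0.088 across genes and did not show it. Those of mis4-367 correlated at 0.067, 0.061 and 0.090, where its arrays of different number gave -0.082 to 0.031. The fit with the number as a block was run as an alternative. Alternatives were re-centring, quantile normalization over the S. pombe genes, the mean of all probe sets, an offset of 16 before log2, dim genes left out, eBayes with trend and robust settings, a test against 1.5-fold, a replicate block, only the 6 mis4+ arrays, and each of these arrays left out.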

Additional observations from a re-analysis of the deposited data

Results flagged for a closer look

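Probe sets without a gene name entered no comparison above, and many of them carried signal. Of 5177 such probe sets, 2183 lay above the background level in at least 1 temperature group of mis4+. Between the temperatures, 62 of them were 2-fold or more higher and 48 were 2-fold or more lower at 37 °C with groups that did not overlap. Which genes they read was not analysed here.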

How the results depend on the processing

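The count of 1601 changed genes was 1349 with only the mis4+ arrays in the fit, 1595 to 1681 under re-centring, quantile normalization, the offset, the mean of all probe sets, the filter on dim genes and the trend and robust settings, and 1357 to 1734 with single arrays left out. Against a minimum change of 1.5-fold, 108 genes passed, 75 risen and 33 fallen. The 61 rises of 2-fold or more became 39 with the offset of 16, which lowers ratios of dim genes by construction. Of the 85 genes with 2-fold changes, 84 were called under every alternative other than the 1.5-fold test (dli1 was lost under quantile normalization) and 83 also under that test. None of the 40 largest changes was lost in any alternative other than that test. Among the 447 named genes that passed, 376 did so under every alternative other than that test. The difference between the strains' responses passed for 0 genes in limma under each alternative run. Under quantile normalization amt3 (-0.14, adjusted p = 0.305), atg101 (-0.12, 0.141), lsm8 (-0.13, 0.256) and mug184 (-0.37, 1.01e-04) turned to the opposite sign. The cause was not tested. List medians moved beyond the spread between arrays in 22 of 574 comparisons. Re-centring gave -0.043 for chaperonin and prefoldin, 0.049 for RNA polymerase I and III, 0.016 for RNA polymerase II and -0.128 for translation factors. Quantile normalization gave -0.100 for mitochondrial chaperones, -0.539 for glucose and protein kinase A, 0.029 for RNA polymerase I and III, -0.074 for translation factors, 0.037 for mitochondrial ribosomal proteins, -0.137 for histones, -0.113 for MBF targets and 0.031 for meiosis, whose median was 0.159 with the offset. With single arrays left out the medians ran from -0.053 to 0.022 for antioxidant genes, 0.018 to 0.072 for RNA polymerase II, -0.118 to -0.096 for translation factors, -0.212 to -0.095 for purine and pyrimidine synthesis, -0.040 to 0.003 for the tricarboxylic acid cycle, -0.035 to 0.027 for MBF targets, -0.039 to 0.036 for thiamine and -0.052 to 0.033 for the secretory pathway.

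With the replicate number as a block for the pairing, 1534 genes changed, 937 risen and 597 fallen, with 61 rises and 24 falls of 2-fold or more. Of the 447 named genes that passed, 14 were lost with the block and 8 others were gained.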
